A study of Mus musculus with 6 samples.

Results

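The receptors of the SLAM family (signalling lymphocytic activation molecule) and their adaptor SAP were described in sorted mouse thymocytes. The 7 genes are Slamf1, Slamf6, Ly9, Cd84, Cd48, Cd2 and Sh2d1a, the gene of SAP. They were taken by gene symbol from the platform annotation, with every probe that carries that symbol alone: 12 probes of 34945, standing for 7 of 18193 genes. All 7 genes and all 12 probes passed the filter on dim signals, so that none is missing from the tests.

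SLAM receptors are immunoglobulin-type surface proteins of blood cells. Most bind the same receptor on a neighbouring cell, whereas CD48 is held in the membrane by a lipid anchor and is, in mice, the partner of CD2 and of the family member CD244. The cytoplasmic tails of several of them carry tyrosines that, once phosphorylated, bind the SH2 domain of SAP, which brings in the kinase Fyn. In the thymus double-positive cells display these receptors to each other, and the SLAM and SAP pathway is required for natural killer T (NKT) cells, which are selected on CD1d carried by double-positive cells.

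Expression was measured on 6 arrays, 2 for each of 3 stages sorted by surface CD4 and CD8: double-positive (DP) cells, CD4intCD8+ cells with intermediate surface CD4, and CD8 single-positive (CD8SP) cells. All cells came from mice of 5 to 6 weeks labelled Rag2-/- and H-2b, homozygous for the N15 T cell receptor as a transgene (tg+/+). All 3 groups share both features, and without Rag2 a T cell rearranges no receptor genes of its own, so the transgenic receptor is the one it carries. The Rag2 probe read 137 and 193 in DP cells, 14.8 and 30.1 in CD4intCD8+ cells and 2.06 and 17.4 in CD8SP cells. The labels do not say whether that probe lies within the deleted part of the gene, so it cannot serve as a check of the genotype. Labels name 6 age- and sex-matched mice and 2 independent experiments. They do not say which animals went into which array, so the p-values reflect spread between arrays, part of which may be technical.

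Array medians lay between 24.9 and 25.7 intensity units, and 3.60% of all non-control values were below 0. The pair of arrays of a stage correlated across genes at 0.975 to 0.983 (Pearson; genes are not independent replicates). For RNA length, the actin control gave a ratio of 3' to 5' signal of 1.98 and 2.14 in DP cells, 2.37 and 3.47 in CD4intCD8+ cells and 2.28 and 2.62 in CD8SP cells. CD4intCD8+ replicate 2 stood highest, and every array of the later stages stood above both DP arrays. This ratio therefore went with stage in the comparisons against DP, and a fit with it as covariate cannot fully separate it from stage. T lineage markers were bright on all arrays, with Cd3e between 638 and 1002. Rag1 was lower and Itgae higher in both later stages than in DP cells (all adjusted p under 0.05), in the direction of the sort labels. Markers of B, myeloid and dendritic cells were dim: summed over 6, 8 and 6 genes, they reached 111 to 259, 245 to 452 and 108 to 143. With 2 arrays per stage, array number sets the limit of precision.

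Across the whole span, from DP to CD8SP, the family split: Slamf1 and Sh2d1a fell most, Cd84 and Cd2 fell less, Cd48 rose, and Slamf6 and Ly9 did not pass the test. In limma's fit over all genes 5 of the 7 were called at an adjusted p under 0.05, 4 lower and 1 higher in CD8SP, where 19.8% of all tested genes were called, 8.35% lower and 11.5% higher. The median log2 change of the 7 was -0.43, against 0.01 over all tested genes. At the first step, CD4intCD8+ against DP, 3 of the 7 were called, Slamf1 and Sh2d1a lower and Cd48 higher, against a background of 11.7%, 4.84% lower and 6.86% higher. At the second step, CD8SP against CD4intCD8+, 0 of 7 were called by limma and 3 had an unadjusted p under 0.05, where 0.119% of all genes were called (0.101% higher and 0.0183% lower). With the replicate number added to the model as a block, 4 members were called at the first step, with Cd84 lower beside the 3 above. That fit called 10.1% of all genes lower there. At the second step it called Slamf1 and Sh2d1a lower as well, where it called 2.08% of all genes, 0.824% lower. The whole-span count of 5 was 3 without DP replicate 1, DP replicate 2 or CD8SP replicate 2, and the first-step count of 3 was 0 without DP replicate 1, 1 without CD4intCD8+ replicate 2 and 2 without DP replicate 2. The 2 comparisons against DP share the DP arrays and are not independent of each other.

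**Figure D1:**
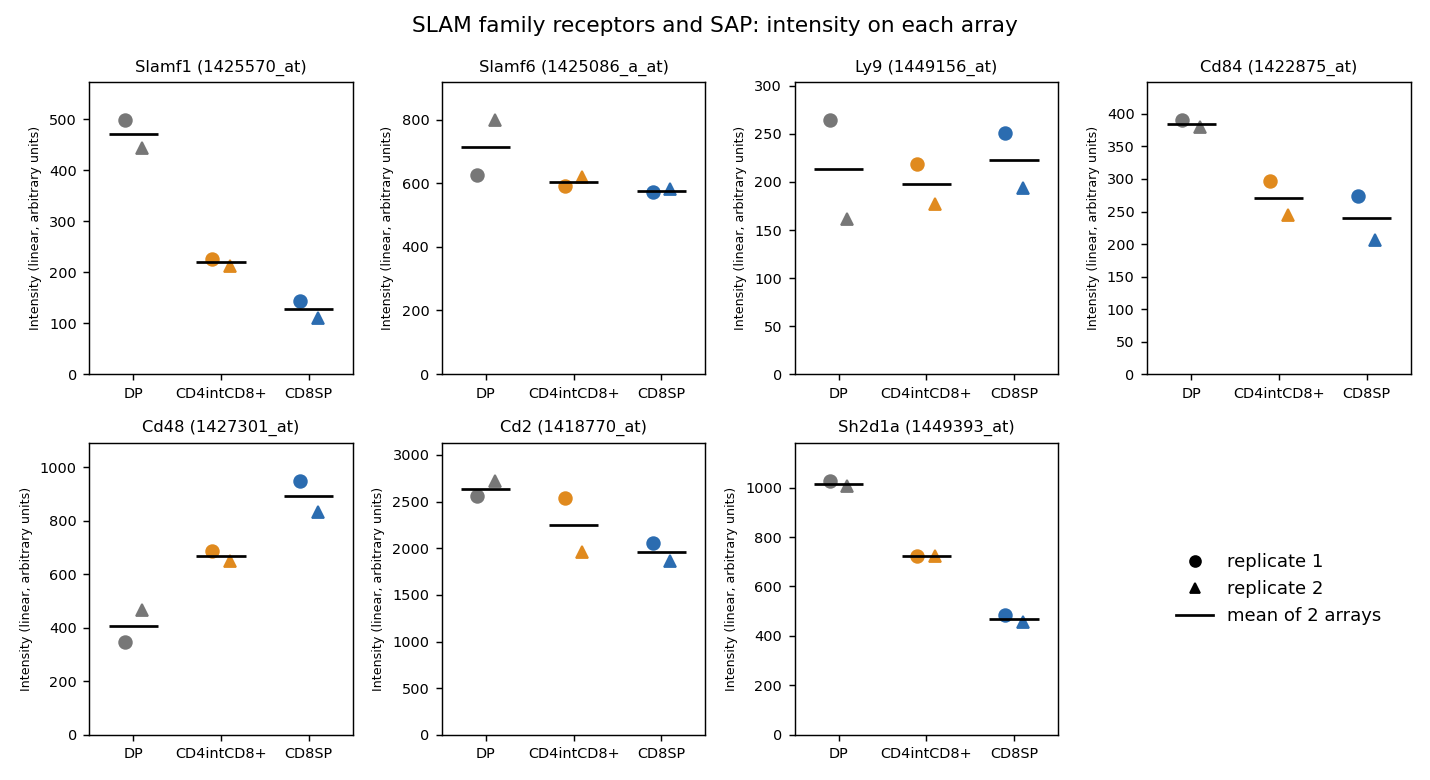
Deposited intensity (linear, arbitrary units) of the probe that stands for each of the 7 genes on each of the 6 arrays; circles are replicate 1, triangles replicate 2 and bars the mean of 2 arrays. Slamf1 and Sh2d1a step down at each stage and Cd48 steps up, with no overlap between stages, while the Ly9 arrays of the 3 stages overlap.

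A group of 4 members lies together on chromosome 1 and has promoter windows in the RefSeq table (GRCm38.p6, plus strand, 250 bases before to 50 after the start): Slamf1, which fell, Cd84, which fell less, Slamf6, which was not called, and Cd48, which rose. They are shown because genes of 1 cluster moved in different directions. Capitals mark CANNTG, the E-box core bound by E proteins, whose activity is high in DP cells. The windows are chr1:171766882-171767181 for Slamf1, chr1:171839447-171839746 for Cd84, chr1:171917212-171917511 for Slamf6 and chr1:171681742-171682041 for Cd48.
Slamf1: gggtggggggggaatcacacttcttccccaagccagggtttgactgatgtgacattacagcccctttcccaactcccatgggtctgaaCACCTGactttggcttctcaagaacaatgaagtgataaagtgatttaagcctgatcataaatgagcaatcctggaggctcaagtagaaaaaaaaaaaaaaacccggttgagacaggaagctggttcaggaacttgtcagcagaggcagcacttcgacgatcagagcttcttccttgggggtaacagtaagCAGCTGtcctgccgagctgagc
Cd84: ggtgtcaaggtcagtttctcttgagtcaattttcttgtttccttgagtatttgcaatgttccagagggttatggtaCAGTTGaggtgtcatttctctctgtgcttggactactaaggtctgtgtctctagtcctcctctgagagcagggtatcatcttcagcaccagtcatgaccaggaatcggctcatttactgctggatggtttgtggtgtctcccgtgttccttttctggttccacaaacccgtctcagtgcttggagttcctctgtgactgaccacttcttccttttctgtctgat
Slamf6: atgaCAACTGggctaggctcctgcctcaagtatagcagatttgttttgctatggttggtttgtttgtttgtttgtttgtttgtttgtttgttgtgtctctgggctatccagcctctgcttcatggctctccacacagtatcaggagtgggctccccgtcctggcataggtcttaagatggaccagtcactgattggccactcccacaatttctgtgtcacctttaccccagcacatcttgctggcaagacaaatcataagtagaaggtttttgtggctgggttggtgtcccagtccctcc
Cd48: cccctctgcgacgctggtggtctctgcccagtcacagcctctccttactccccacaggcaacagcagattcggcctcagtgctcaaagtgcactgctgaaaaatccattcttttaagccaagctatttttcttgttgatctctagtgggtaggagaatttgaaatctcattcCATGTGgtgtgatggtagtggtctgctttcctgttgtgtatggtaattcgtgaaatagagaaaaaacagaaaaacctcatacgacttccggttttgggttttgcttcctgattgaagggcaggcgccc
All 4 windows held CANNTG, with 2 matches in Slamf1 and 1 in each of the others; 72.3% of 32851 promoter windows of the same length hold it. On both strands, GGAA, the core of Ets factor sites, matched 6 times in Slamf1, 7 times in Cd84 and 4 times in Cd48, and 0 times in Slamf6; 96.0% of windows hold it, with a median of 3 matches. TGTGGT, a core of Runx sites, matched 1 time in Cd84 and 1 time in Cd48 and is held by 16.8% of windows. In Cd48 it overlaps the marked E-box, as does 1 of the GGAA matches. A match of letters is a description and shows no binding.

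Slamf1 encodes SLAM (CD150), a receptor that binds itself on the opposite cell and gives the family its name. Its probe 1425570_at read 498 and 444 in DP cells, 226 and 212 in CD4intCD8+ cells and 144 and 109.7 in CD8SP. Every array of a later stage lay below every array of the stage before. From DP to CD4intCD8+ Slamf1 fell by 1.08 ± 0.16 on the log2 scale (SE, n = 2 arrays each; limma adjusted p = 0.0061), 2.12-fold. Over the whole span it fell by 1.85 ± 0.16 (adjusted p = 0.000188), 3.62-fold. From CD4intCD8+ to CD8SP its log2 change was -0.77 ± 0.16 (adjusted p = 0.12; 0.0131 with the replicate block). The call at the first step was lost without DP replicate 1 (adjusted p = 0.0512) and when the actin ratio entered as a covariate (0.0506), while the call over the whole span held under all 16 alternatives, with changes from -2.04 to -1.67.

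The other probes of Slamf1 gave the same direction. Probe 1425569_a_at read 226 and 147 in DP cells, 78.5 and 43.7 in CD4intCD8+ cells and 47.4 and 30.2 in CD8SP. Probe 1425571_at read 88.9 and 80.5, 44.8 and 48.2, and 35.1 and 22.1 in the same order of stages. In the probe-level fit the 3 probes fell by 2.10, 1.85 and 1.42 on the log2 scale over the whole span (adjusted p = 0.00235, 0.000209 and 0.00316). At the first step the dimmest, 1425571_at, was not called (log2 change -0.79 ± 0.22, adjusted p = 0.0612), and the other 2 were.

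Sh2d1a encodes SAP, the adaptor that links the tails of SLAM receptors to Fyn; in humans its loss causes X-linked lymphoproliferative disease. Its single probe, 1449393_at, read 1026 and 1006 in DP cells, 722 and 722 in CD4intCD8+ cells and 484 and 456 in CD8SP. The 3 pairs of arrays did not overlap, and within each stage the 2 arrays lay close together. Sh2d1a fell by 0.49 ± 0.10 from DP to CD4intCD8+ (adjusted p = 0.0203) and by 1.10 ± 0.10 from DP to CD8SP (adjusted p = 0.00029), 2.15-fold. From CD4intCD8+ to CD8SP its log2 change was -0.61 ± 0.10 (adjusted p = 0.0886; 0.0101 with the block). Within replicate 1 the whole-span change was -1.07 and within replicate 2 it was -1.13. The call at the first step was lost without any of the 4 arrays compared (adjusted p from 0.0594 to 0.109), in a fit that ignores the intensity trend (0.0596) and when the actin ratio was a covariate (0.174). The call over the whole span held under all 16 alternatives, from -1.15 to -1.06.

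Cd84 encodes a further self-binding receptor whose tail recruits SAP. Its probe 1422875_at read 390.1 and 379 in DP cells, 297 and 245 in CD4intCD8+ cells and 274 and 207 in CD8SP. Both later stages lay below DP, and they overlapped each other. From DP to CD8SP Cd84 fell by 0.68 ± 0.17 (adjusted p = 0.0213), 1.60-fold; its first-step change of -0.50 ± 0.17 was not called (adjusted p = 0.0826; 0.0159 with the block). The second probe, 1446505_at, was dim and ran the other way, at 50.6 and 39.4 in DP cells, 57.0 and 56.1 in CD4intCD8+ cells and 67.7 and 48.3 in CD8SP. Its whole-span log2 change of 0.32 ± 0.21 was not called (adjusted p = 0.365). The fall of Cd84 therefore rests on 1 of 2 probes: with the mean of both, the log2 change was -0.18 (adjusted p = 0.546). The call was also lost without DP replicate 1, DP replicate 2 or CD8SP replicate 2 (adjusted p = 0.108, 0.0899 and 0.136).

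Slamf6 encodes Ly108, a self-binding receptor that acts with SLAM in the selection of NKT cells. Its probe 1425086_a_at read 627 and 797 in DP cells, 591 and 619 in CD4intCD8+ cells and 571 and 581 in CD8SP. Both later stages lay below DP without overlap, by less than the gap between the DP arrays. No contrast was called; the whole-span log2 change was -0.29 with a 95% interval from -0.60 to 0.01 (adjusted p = 0.161). The 2 dimmer probes, 1420659_at and 1457773_at, had whole-span log2 changes of -0.18 and -0.19, neither called (adjusted p = 0.514 and 0.593).

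Ly9 encodes CD229, another self-binding receptor with SAP-binding tyrosines. Its probe 1449156_at read 264 and 162 in DP cells, 219 and 177 in CD4intCD8+ cells and 251 and 194 in CD8SP. The arrays of all 3 stages overlapped, and replicate 1 was the higher array at each stage. Its whole-span log2 change was 0.09 with a 95% interval from -0.44 to 0.62 (adjusted p = 0.826), so that a change of up to about that size in either direction cannot be told from 0 here.

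**Figure D2:**
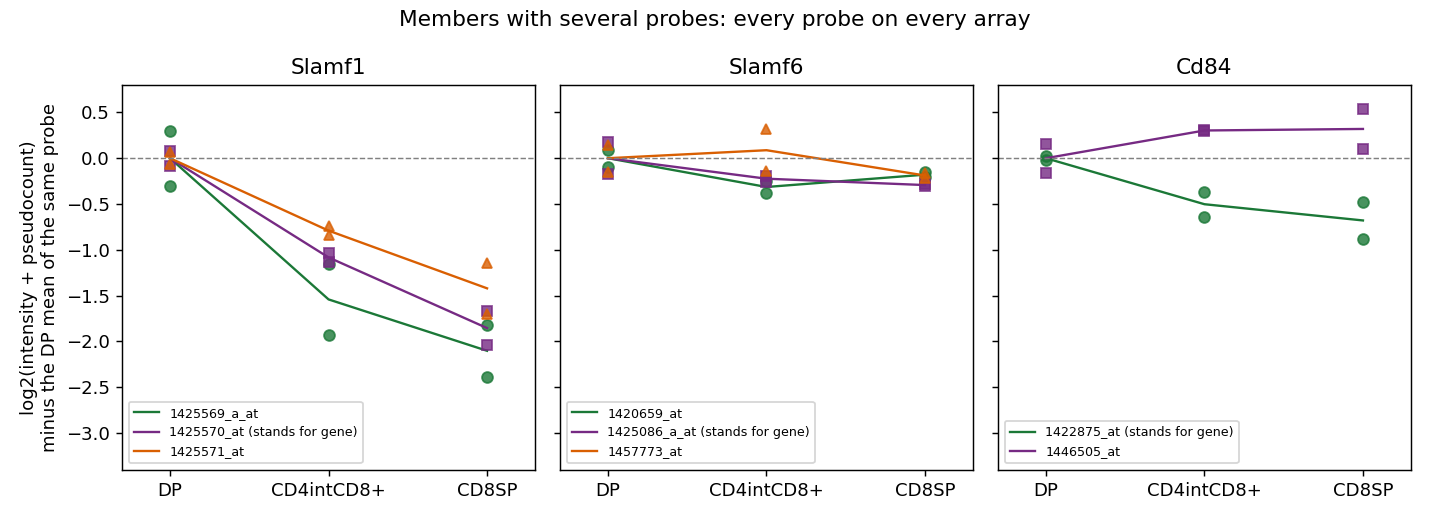
Every probe of the 3 members with several probes, as log2(intensity + pseudocount) minus the DP mean of the same probe; points are arrays and lines join stage means. The 3 Slamf1 probes all descend, the Slamf6 probes stay near the DP level, and the 2 Cd84 probes separate in opposite directions.

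Cd48 and Cd2 encode a pair of partners that bind each other across cells. Cd48, read by probe 1427301_at, stood at 347 and 468 in DP cells, 688 and 649.8 in CD4intCD8+ cells and 948 and 834 in CD8SP. It was the only member called higher, and its 3 stages did not overlap. It rose by 0.72 ± 0.15 from DP to CD4intCD8+ (adjusted p = 0.0192) and by 1.13 ± 0.15 from DP to CD8SP (adjusted p = 0.00137), 2.19-fold. From CD4intCD8+ to CD8SP its log2 change was 0.41 ± 0.15 (adjusted p = 0.432). The first-step call was lost without DP replicate 1 or CD4intCD8+ replicate 2 (adjusted p = 0.109 and 0.0522), in the fit that ignores the trend (0.0514) and when the actin ratio was a covariate (0.0854); the whole-span call held under all 16 alternatives, from 0.92 to 1.34.

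CD48 is made by most white blood cells, so markers of other cells are given beside it. Summed over the list, B cell markers read 259 and 251 in CD8SP and 189 and 223 in DP, with Cd79b at 68.5 and 66.0 against 31.9 and 34.9 (log2 change 0.90, adjusted p = 0.0118). Ms4a1 read 124 and 119 in CD8SP and 92.1 and 127 in DP (log2 change 0.16, adjusted p = 0.843). Cd79a lay between 9.48 and 15.8 on the 6 arrays, and Pax5, Ebf1 and Blnk reached at most 29.9. Myeloid markers read 268 and 346 in CD8SP and 245 and 293 in DP, and dendritic markers 119 and 135 against 121 and 136. Natural killer markers read 2478 and 2795 in CD8SP and 1138 and 981 in DP, most of it Gzma, a granzyme (2345 and 2672 against 978 and 852). Ncr1 read 51.6 and 23.9 in CD8SP and 25.5 and 22.9 in DP. The brighter Prf1 probe read 57.6 and 65.7 in CD8SP against 109 and 81.0 in DP. The dimmer Prf1 probe ran the other way, at 47.9 and 40.5 against 29.4 and 29.6. Klra8, Klrk1 and Fcgr3 reached at most 19.3 on any array. Immature thymocyte markers read 819 and 749.9 against 297 and 289.7, with 1 of 2 tested genes called higher. That gene, Dtx1, made most of the sum (705 and 535 in CD8SP against 192 and 171 in DP). Il2ra read 19.0 and 34.3 against 23.0 and 32.8, and Hes1 24.4 and 32.8 against 30.0 and 30.2. Ptcra read 37.9 and 111 against 41.4 and 49.9, and Kit 32.4 and 36.6 against 11.1 and 6.19. Called higher were also 1 of 2 tested B cell and 1 of 2 tested natural killer genes, and 0 of 5 myeloid and 0 of 1 dendritic genes. Of all tested genes 11.5% were called higher in CD8SP than in DP, so such small lists say little. The part of these marker genes in the rise of Cd48 was not tested. In bulk samples, a change in the share of cells that express a gene and a change in RNA per cell cannot be told apart.

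Cd2 encodes the adhesion receptor CD2 of T cells. Its probe 1418770_at read 2556 and 2719 in DP cells, 2543 and 1962 in CD4intCD8+ cells and 2061 and 1865 in CD8SP. Both CD8SP arrays lay below both DP arrays, while CD4intCD8+ overlapped CD8SP. Cd2 fell by 0.43 ± 0.12 from DP to CD8SP (adjusted p = 0.0388), 1.34-fold, and the single steps were not called (log2 changes -0.24 and -0.19). The first-step change was -0.42 without CD4intCD8+ replicate 1 (adjusted p = 0.0372), -0.05 without CD4intCD8+ replicate 2, and 0.06 when the actin ratio was a covariate. The second-step change was -0.0013 without the first of these arrays and -0.37 without the second. The call was lost under 9 of 16 alternatives, among them quantile normalization (log2 change -0.27, adjusted p = 0.116) and the omission of any DP or CD8SP array (adjusted p from 0.0613 to 0.185). Beside it, T lineage markers summed to 6075 and 5111 in CD8SP and 7166 and 7037 in DP. Of these markers 2 of 4 were called lower, where 8.35% of all tested genes were. The 3' actin control read 2575 and 1891 in CD8SP and 3289 and 3524 in DP. The part of these markers and of the actin control in the fall of Cd2 was not tested.

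**Figure D3:**
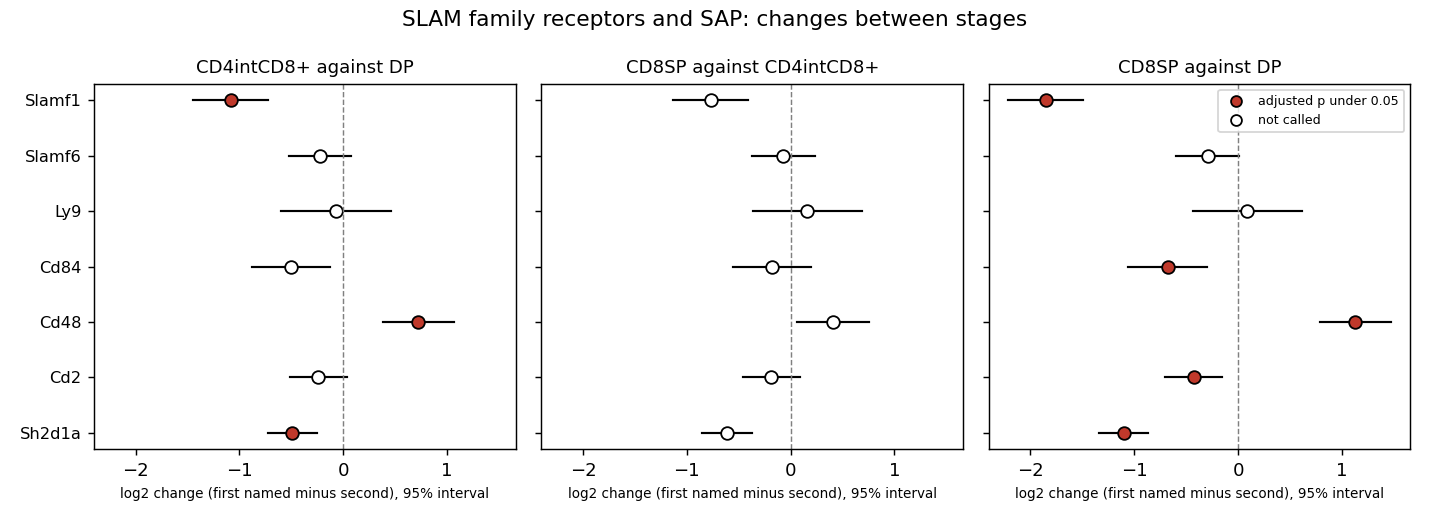
Log2 changes of the 7 genes in the 3 comparisons with 95% intervals from the limma fit; filled points have an adjusted p under 0.05. From DP to CD8SP, Slamf1 and Sh2d1a lie farthest below 0 and Cd48 lies above it.

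By arrays alone, 5 members were lower in CD8SP than in DP without overlap (Slamf1, Slamf6, Cd84, Cd2 and Sh2d1a), where 29.1% of all tested genes were, and 1, Cd48, was higher, where 32.4% were. At the first step 5 were lower and 1 higher without overlap, where 27.9% and 30.8% of all genes were, and at the second 3 were lower and 1 higher, where 18.6% and 20.2% were. Of the 12 probes, 6 were called lower and 1 higher in CD8SP than in DP, where 13.9% of all tested probes were called (6.21% lower and 7.71% higher). At the first step 3 probes were called lower and 1 higher (7.45% of all probes called, 3.20% lower and 4.25% higher), and at the second step 0, with 4 at an unadjusted p under 0.05 (0.0858% of all probes called, 0.0668% higher and 0.0191% lower).

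The rest of the family was dim in these cells. Slamf7 read 16.2 and 21.7 in DP cells, 20.8 and 16.7 in CD4intCD8+ cells and 32.6 and 24.7 in CD8SP. Slamf8 lay between -9.20 and 11.6 and Slamf9 between 5.71 and 30.5. All 3 were under the filter of the gene-level fit. In the probe-level fit Slamf8 was again under the filter, and Slamf7 and Slamf9 were not called (whole-span log2 changes 0.48 ± 0.27 and 0.65 ± 0.46, adjusted p = 0.285 and 0.395). Cd244a, the gene of CD244, another receptor for CD48, read 41.4 and 33.6 in DP cells, 57.8 and 29.3 in CD4intCD8+ cells and 49.9 and 33.8 in CD8SP, and its whole-span log2 change of 0.12 ± 0.30 was not called (adjusted p = 0.815). The adaptor genes Sh2d1b1 and Sh2d1b2 were not analysed here.

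On chromosome 1 most of the family receptor genes form a block, and other family genes lie farther off among unlisted genes. In the GRCm38.p6 gene order, Cd244a, Ly9, Slamf7, Cd48, Slamf1, Cd84 and Slamf6 come in this order, with Tma7-ps, which the table lists as protein-coding, between Cd48 and Slamf1. Tma7-ps had no probe in the analysis, so every neighbour tested below lies outside that block. In all, 57 other genes listed as protein-coding lie between the outermost family genes Sh2d1b2 and Slamf8. Of these, 31 passed the filter; 2 were called higher in CD8SP than in DP, 0 lower, and 29 were not called, where 11.5% of all tested genes were higher and 8.35% lower, with a median log2 change of -0.08 against 0.01 over all tested genes. The 2 were Tagln2, an actin-binding protein gene (1.66 ± 0.16, adjusted p = 0.000319), and Pea15a, which encodes a death-effector domain protein (1.21 ± 0.16, adjusted p = 0.00143). Tagln2 read 271 and 297 in CD8SP against 79.2 and 92.5 in DP, and Pea15a 204 and 164 against 71.3 and 81.0.

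Among 18 measured signalling partners of SAP, SLAM receptors and CD2, 4 were called lower in CD8SP than in DP, 0 higher and 14 were not called. Of all tested genes 8.35% were lower and 11.5% higher. The median log2 change of the 18 was -0.22, against 0.01 over all tested genes. These counts rest on the brightest probe of each gene. Other probes, such as those of Vav1 and Pik3r1, can differ in the size of their change and were not counted. Fyn, the kinase that SAP recruits, read 523 and 448 in CD8SP and 562 and 468 in DP and was not called (log2 change -0.08 ± 0.15, adjusted p = 0.746). Dok2, an adaptor that dampens Ras signals, fell by 0.88 ± 0.14 (adjusted p = 0.00322), to 200 and 178 in CD8SP against 351 and 355 in DP. Pstpip1, a cytoskeletal adaptor that binds the CD2 tail, fell by 0.70 ± 0.14 (adjusted p = 0.00912), to 385 and 385 against 608 and 656. Inpp5d, the inositol phosphatase SHIP-1, fell by 0.50 ± 0.13 (adjusted p = 0.0263), and Prkcq, the kinase PKC-theta, by 0.48 ± 0.12 (adjusted p = 0.0259). Both calls were lost with the actin covariate (adjusted p = 0.0644 and 0.0559), and that of Prkcq also in the fit that ignores the trend (0.0767). Without DP replicate 1, DP replicate 2 or CD8SP replicate 2, the Inpp5d change was -0.50, -0.51 and -0.46. The Prkcq change was -0.42, -0.55 and -0.33 in the same order. Dok2, Pstpip1 and Inpp5d were also the 3 called at the first step, all lower (-0.76, -0.79 and -0.62), where 4.84% of all genes were lower, and 0 were called at the second. With the block 7 partners were lower at the first step, where 10.1% of all genes were. The first-step count was 0 without DP replicate 1, DP replicate 2 or CD4intCD8+ replicate 2, and 0 with the actin covariate. The whole-span count was 7 with the block (13.1% of all genes lower), 2 with the actin covariate, 2 without DP replicate 1 or CD8SP replicate 2, and 1 without DP replicate 2.

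Of 12 genes listed for the NKT and innate-like T cell programme, 7 passed the filter; 4 were called lower in CD8SP than in DP, 0 higher and 3 were not called, where 8.35% of all tested genes were lower and 11.5% higher. Their median log2 change was -0.53, against 0.01 over all tested genes. The stages were sorted by surface CD4 and CD8 from mice labelled with a transgenic receptor. These values describe transcripts of listed genes and do not measure NKT cells. Gata3, a transcription factor of T cells, read 339.7 and 450.3 in CD8SP against 864 and 872 in DP and fell by 1.14 ± 0.15 (adjusted p = 0.00116). Il17rb, a receptor for interleukin 25, fell to 78.7 and 102 against 419 and 262 (-1.82 ± 0.22, adjusted p = 0.000764). Cd1d1, which encodes the CD1d molecule that shows lipids to NKT cells, read 438 and 351 in CD8SP against 665 and 682 in DP and fell by 0.77 ± 0.14 (adjusted p = 0.00529); its near copy Cd1d2 can share signal with it. Egr2, a transcription factor induced by receptor signals, fell by 0.53 ± 0.15 (adjusted p = 0.0359). That call was lost in the fit that ignores the trend (adjusted p = 0.0687) and with the actin covariate (0.0737). It was also lost without DP replicate 1, DP replicate 2 or CD8SP replicate 2 (log2 changes -0.58, -0.48 and -0.34). Zbtb16, the gene of the NKT factor PLZF, was dim (32.1 and 34.5 in CD8SP, 45.7 and 40.3 in DP) and was not called (log2 change -0.32, adjusted p = 0.334). The other uncalled genes were Icos, a costimulatory receptor gene, and Rora, a nuclear receptor gene, both with CD8SP arrays above DP arrays. Icos read 569.6 and 389 in CD8SP against 339 and 293 in DP (log2 change 0.57, adjusted p = 0.0947), and Rora 47.4 and 43.7 against 40.7 and 37.0 (0.20, adjusted p = 0.49). Listed genes under the filter were not tested. Of these, Eomes read 53.7 and 29.6 in CD8SP against 17.1 and 27.2 in DP. Its other probe read 25.7 and 45.2 against 8.99 and 12.3. Tbx21 read 13.4 and 60.1 against -1.71 and -20.6. Cd1d2 read 14.4 and 14.8 against 40.2 and 53.8, and Il4 5.11 and 8.29 against 9.77 and 3.34. At the first step Gata3 was called (-0.58 ± 0.15, adjusted p = 0.0387), 1 of 7 where 4.84% of all genes were lower. That call was lost without any of the 4 arrays compared (adjusted p from 0.0719 to 0.158), with quantile normalization (0.0588), with the mean of all probes (0.0512) and in the fit that ignores the trend (0.0804). Cd1d1 was called beside it with the block (-0.49, adjusted p = 0.018, against 0.052 without). At the second step 0 of 7 were called, where 0.0183% of all genes were lower; Gata3 and Il17rb were called lower with the block (adjusted p = 0.0321 and 0.0114), and Il17rb also with the actin covariate (-1.29, adjusted p = 0.0445).

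**Figure D4:**
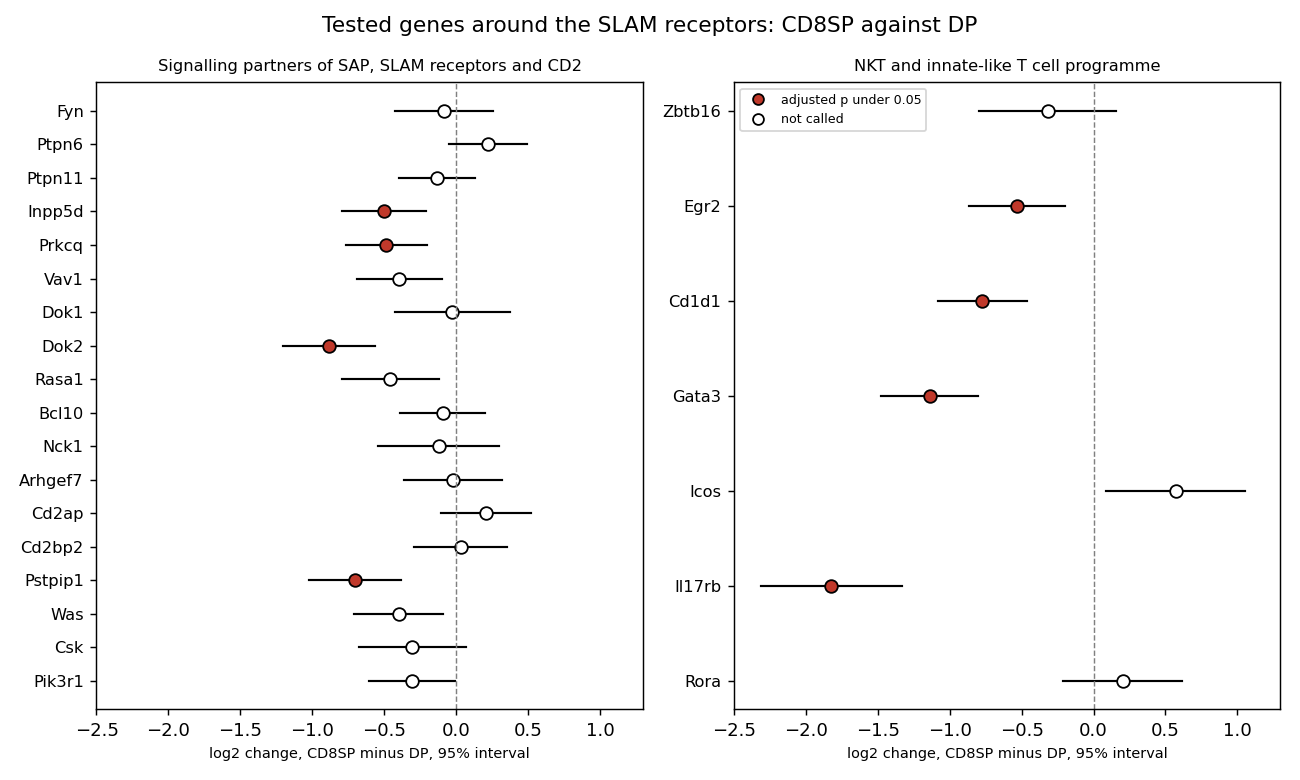
Log2 changes from DP to CD8SP with 95% intervals for the tested genes of the signalling list (left) and of the NKT and innate-like list (right); filled points have an adjusted p under 0.05. All 8 filled points lie below 0, with Il17rb farthest at -1.82.

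For each member called in at least 1 comparison, the 3 tested genes with the most similar profile were found by the Euclidean distance of centred log2 values over the 6 arrays, among 10916 genes. For Sh2d1a they were Trat1 (0.11), Nrip1 (0.14) and Ccr9 (0.15), and Trat1 read 891 and 846 in DP cells, 601 and 602 in CD4intCD8+ cells and 416 and 359 in CD8SP. For Slamf1 they were Znrf1 (0.30), Ypel2 (0.31) and Dzip1 (0.34), and for Cd84 Sash3 (0.09), Cd247 (0.12) and Brd2 (0.12). For Cd48 they were C730049O14Rik (0.23), Trem1 (0.24) and Cab39l (0.26), and for Cd2 Ube2r2 (0.09), Paip2 (0.13) and Arid1a (0.13). A small distance describes these 6 arrays and rests on 3 stage means more than on the arrays within a stage.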

How the data were processed

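The authors deposited 1 table of linear intensities, 1 value per probe and array, for 6 arrays of sorted thymocytes hybridised with biotin-labelled cRNA, per the labels. Software, background handling and scaling are not given in the sources used here; values below 0 and the similar array medians show that a subtraction and a scaling had been done. A change in total RNA per cell cannot be seen after such scaling.

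Of 45037 non-control probes, 34945 had 1 gene symbol, 932 several and 9160 none; probes of the last 2 kinds were left out. All 7 member symbols matched the GRCm38.p6 gene table by Entrez number. Each gene was represented by its brightest probe. Negative values were replaced by 0, and the log2 of intensity plus 5.84 was used, the pseudocount being the 10th percentile of positive values; this scale understates changes of dim genes. The genes below the 40th percentile of mean signal (intensity 30.8) were dropped, leaving 10916 (20967 probes in the probe-level fit). All arrays were fitted with limma 3.58.1 (R 4.3.3; lmFit, eBayes with an intensity trend; 3 residual and 6.05 prior degrees of freedom), stage being the only term. P-values were Benjamini-Hochberg adjusted over all features of a comparison and called under 0.05; ± is the SE of a log2 change, and 95% intervals come from the same fit. The fit was also run on simulated data with independent arrays and no filter, as a check of mean estimates. That run does not show how often calls are right where arrays of a number move together.

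Members and lists were chosen with earlier results of these data known. Named genes are the members, the called genes of the signalling and NKT lists, all other family genes, called genome neighbours and the 3 most similar genes; other named genes are marker or control genes given beside a result, and Fyn was picked from its list by role. The uncalled genes of the NKT list, and those under the filter, were named after their values were seen. Once stage means were subtracted, arrays sharing a number moved together across genes (correlations 0.26, 0.21 and 0.30 for the 3 pairs of stages). The labels also name 2 experiments without tying a replicate number to either, and the numbers were taken to pair the arrays. Among the fits, only the replicate block uses this pairing. The main fit, with stage as the only term, leaves it out, and so do the calls given without mention of the block. The alternatives are another pseudocount or filter, quantile normalization, the mean of all probes, no trend, only the arrays compared, the replicate block, the actin ratio as covariate and each array left out.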

Additional observations from a re-analysis of the deposited data

How the results depend on the processing

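Of 336 repeats of the 21 member results under 16 alternatives each, 307 kept their side of the threshold, 25 lost a call and 4 gained one, and 9 had the opposite sign, none of these on a called value. The whole-span calls of Slamf1, Sh2d1a and Cd48 held in every repeat. The number of members called at the first step (3) was 1 in the fit that ignores the trend and 0 when the actin ratio was a covariate, and 0 to 3 with an array left out, with 0 without DP replicate 1 and 1 without CD4intCD8+ replicate 2; the number of member probes (4) was 1, 0 and 0 to 5. At the second step 2 members and 2 probes were called with the replicate block, and 0 with any array left out. Over the whole span the number of members (5) was 3 with the mean of all probes and 3 to 5 with an array left out, and that of probes 5 to 7. Over all genes the first-step count (1277) was 764 with the mean of all probes, 801 without the trend, 2562 with the replicate block, 407 with the actin covariate and 187 to 1399 with an array left out, the lowest being 187 without DP replicate 2 and 317 without DP replicate 1; it was 473 without the second CD4intCD8+ array. The second-step count (13) was 8 with the 60th-percentile filter, 2 with the mean of all probes, 8 with only the arrays compared, 227 with the block, 34 with the actin covariate and 6 to 70 with an array left out, with 70 without CD4intCD8+ replicate 1, 6 without either DP array and 7 without CD8SP replicate 1. The whole-span count (2166) was 3277 with the block and 1018 to 2345 with an array left out, the lowest being 1018 without DP replicate 2 and 1044 without DP replicate 1; it was 1087 without the second CD8SP array. The cause of these shifts was not tested. Where an array was left out, the lone array of its stage was assumed to vary like the other stages. With 2 arrays per stage, and subtraction and scaling already done, small changes and dim probes cannot be resolved, and groups of 2 are too small to look for outlying arrays.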
